A study of Mus musculus with 30 samples.

Results

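The 10 genes described here encode ubiquitin ligases, or their substrate-binding subunits, that are known for their part in skeletal muscle atrophy and remodelling. They were taken by gene symbol from the tables of raw counts and FPKM (read pairs scaled by exon length and library total) of gastrocnemius muscle. Each of the 10 symbols had 1 row, and all 10 passed the expression filter (on average over 20 reads per library and over 0.5 FPKM), which left 12031 genes of the 56951 symbols in the tables. They are Fbxo32, Fbxo30, Fbxo21 and Fbxo40, which encode F-box proteins, Trim63, Trim54 and Trim55, which encode the RING proteins MuRF1, MuRF3 and MuRF2, Cblb, Nedd4 and Asb2.

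A ubiquitin ligase brings a substrate protein to a ubiquitin-conjugating enzyme, and chains of ubiquitin mark the substrate for the proteasome. In wasting muscle the F-box protein atrogin-1 (Fbxo32) and MuRF1 (Trim63) are the classical induced ligases. Their transcription is known to be raised by FoxO factors when insulin and IGF-1 signaling is low, and by glucocorticoids.

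All mice were male wild-type C57BL/6J, kept singly with a running wheel, young adults at the start of the schedules and aged at their end. The 14 mice of the LD group lived under a fixed light-dark cycle and the 16 mice of the ADV group under a cycle advanced by 8 hours once every 4 days, each for 64 weeks. The muscle, which included the plantaris, was taken over a range of daytime hours when both groups were under the same light-dark cycle. The hour was not known for single mice. The schedule acted on the whole animal, so the light cycle, sleep, feeding and running cannot be told apart in these groups.

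Each mouse gave 1 library, with 18875468.5 to 28512674 read pairs counted on exons (median 21711467.5 in LD and 22152249 in ADV). Markers of muscle fibers fitted the tissue label, with Acta1 at a mean of 16870 (LD) and 17480 FPKM (ADV). The share of a library that fell on exons was 91.17 ± 0.12% (SD, n = 14) in LD and 91.53 ± 0.37% (n = 16) in ADV, and ADV mice 34 (92.67%) and 25 (92.04%) stood apart from the rest. Clock genes differed between the groups, since the summed level of 6 genes that are high with Bmal1 was 47.5 to 85.5 FPKM in LD and 71.6 to 134 FPKM in ADV. Of 8 slow fiber markers, 0 had an edgeR FDR or an unadjusted p under 0.05, but all 8 were higher in ADV, with a median log2 change of 0.48. The summed slow fiber level ranged from 52.9 to 1073 FPKM in LD and from 265 to 2101 FPKM in ADV. Adipocyte markers ranged from 177 to 375 FPKM in LD and from 189 to 693 FPKM in ADV, with 1 of 7 called higher. Schwann cell markers were all higher in ADV (6 tested, 0 called, 5 at an unadjusted edgeR p under 0.05, median log2 change 0.46), with a summed level of 24.7 to 47.5 FPKM in LD and 26.5 to 82.6 FPKM in ADV. Of 6 endothelial markers 1 was called, Pecam1, which was higher (edgeR FDR 0.0323), and of 6 fibroblast markers 1, Pdgfra, which was lower (edgeR FDR 0.0194). The part of these differences in the results below was not tested unless a value is given. In whole muscle, fewer cells of a type and less RNA per cell cannot be told apart.

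The 10 genes spanned a wide range of levels (FPKM, a level per exon length). Over the 30 mice Asb2 was the most abundant at 339 ± 63.6 FPKM (SD), followed by Trim63 at 235 ± 144, Trim54 at 231 ± 27.7, Fbxo40 at 108 ± 12.3, Fbxo32 at 95.6 ± 40.1 and Nedd4 at 82.9 ± 8.20 FPKM. Trim55 stood at 22.3 ± 1.91 FPKM, and Fbxo21, Cblb and Fbxo30 were low, at 4.44 ± 0.85, 4.08 ± 0.89 and 2.59 ± 0.54 FPKM. The order was clear between Trim54 and Fbxo40, between Nedd4 and Trim55 and between Trim55 and Fbxo21, where the higher gene was higher in all 30 mice. Neighbours elsewhere overlapped: Asb2 exceeded Trim63 in 25 mice, Trim63 exceeded Trim54 in 10, Fbxo40 exceeded Fbxo32 in 21, Fbxo32 exceeded Nedd4 in 20, and Fbxo21 exceeded Cblb in 19, while Cblb exceeded Fbxo30 in 29.

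**Figure D1:**
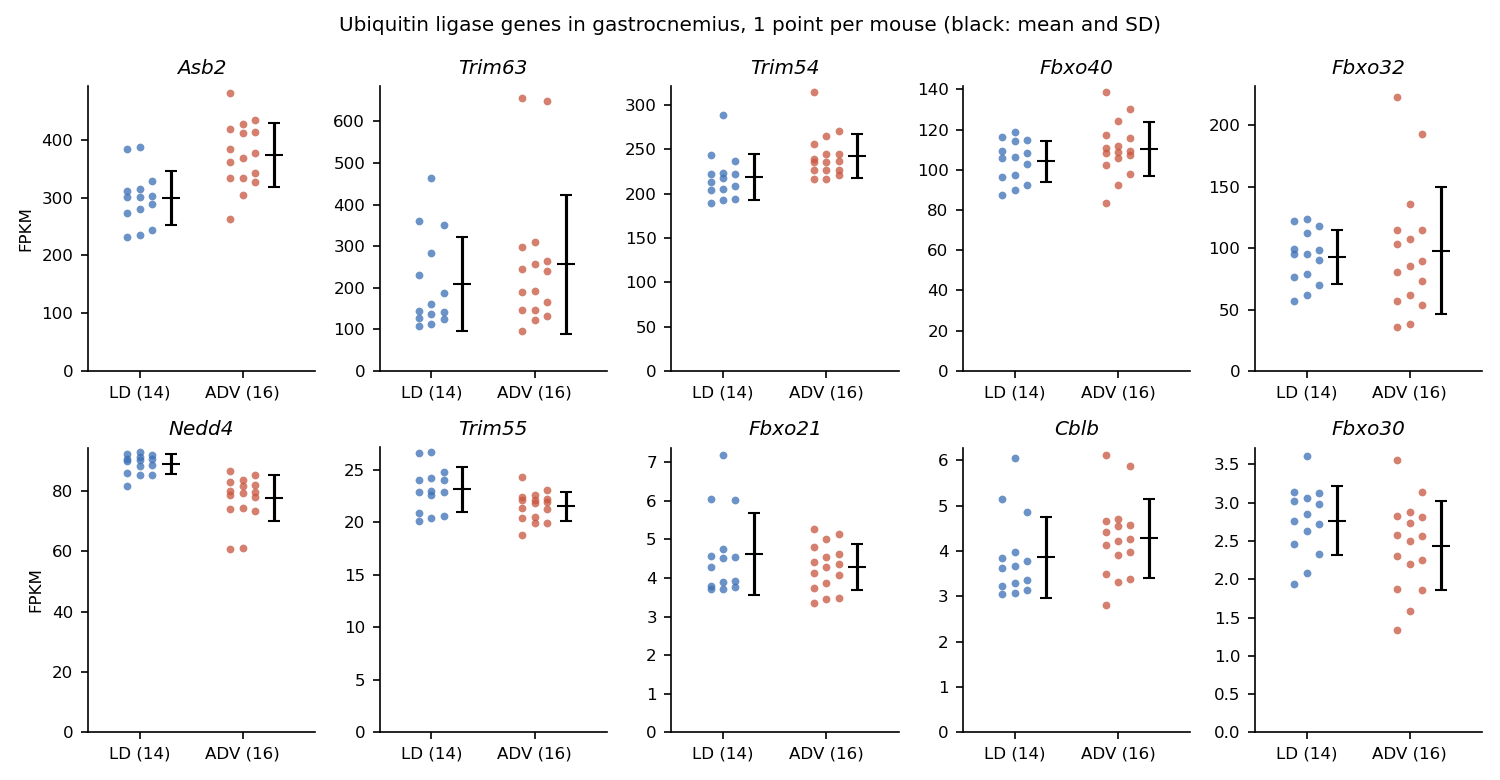
Level of each ubiquitin ligase gene (vertical axis, FPKM, from 0) in the 14 LD mice (blue) and 16 ADV mice (red), 1 point per mouse, ordered by mean level, with the group mean and SD in black. All 16 ADV mice lie below the LD median of 90.1 FPKM for Nedd4 and 15 lie above the LD median of 302 FPKM for Asb2, while 2 ADV mice stand far above the others for Trim63 and Fbxo32.

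The question of the comparison was whether chronic circadian misalignment changed the expression of these genes. By edgeR's quasi-likelihood test, 3 of the 10 were called at an FDR under 0.05 (Benjamini-Hochberg over all genes), against 10.8% of all genes. Nedd4 and Trim55 were lower in ADV (2 of 10, against 5.2% of all genes) and Asb2 was higher (1 of 10, against 5.61%). By edgeR, and likewise by DESeq2, 0 of the 10 also passed a fold change of 1.3, the limit that the study used, while 2.09% of all genes did. An unadjusted edgeR p under 0.05 was found for 4 of the 10, the fourth being Trim54, and for 30.1% of all genes. The classical atrophy ligases Fbxo32 and Trim63 were not among the genes called. The median absolute log2 fold change (log2 change) over all genes was 0.10 and the median log2 change 0.00, so the differences in these ligases were set against a background of many small ones.

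**Figure D2:**
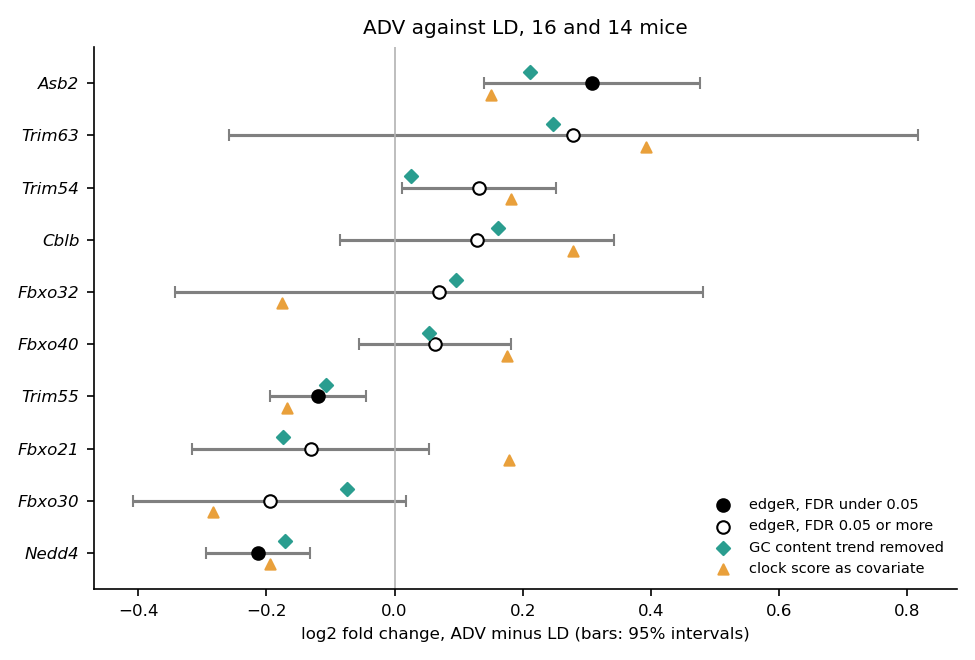
Log2 fold change (log2 change) of each gene, ADV minus LD (horizontal axis), by edgeR over 14 LD and 16 ADV mice, with bars of 95% intervals and filled circles for an FDR under 0.05. Diamonds give the value after removal of the GC content trend of each library and triangles that with a clock gene score as a covariate. Nedd4 lies at -0.21, -0.17 and -0.20 in these fits and Asb2 at 0.31, 0.21 and 0.15.

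Fbxo32 encodes atrogin-1, the F-box subunit of a cullin ligase whose known substrates include the translation factor eIF3-f and MyoD. It lies on chromosome 15 of GRCm39 (chr15:58039275-58078328, minus strand). In LD mice it ranged from 57.1 to 124 FPKM with a median of 95.3 FPKM, and in ADV mice from 35.7 to 223 FPKM with a median of 87.9 FPKM. The ADV range thus extended past the LD range at both ends, with 3 ADV mice above the highest and 3 below the lowest LD mouse. The group means were 92.8 ± 21.7 FPKM (SD, n = 14) and 98.0 ± 51.8 FPKM (n = 16), a log2 change of 0.07 (standard error 0.21, 95% interval -0.34 to 0.48, edgeR FDR 0.853). The sign of this value was not stable, at -0.05 without ADV mouse 35 and -0.03 without ADV mouse 30, the 2 mice with the highest levels. Gm15943 overlaps 4.55% of the exon bases of Fbxo32 on the other strand, and the sources do not say whether counting used the strand.

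The other F-box genes differed by less than their spread. Fbxo30 encodes MUSA1, a ligase subunit known to be held down by BMP signaling. It was at 2.77 ± 0.45 FPKM (SD, n = 14) in LD and 2.44 ± 0.58 FPKM (n = 16) in ADV (log2 change -0.19, standard error 0.11, edgeR FDR 0.225). Fbxo21, which encodes the subunit named SMART, was at 4.63 ± 1.07 and 4.28 ± 0.60 FPKM (log2 change -0.13, standard error 0.09, edgeR FDR 0.357). For both genes the ranges of the groups overlapped, with 4 ADV mice below the lowest LD mouse for Fbxo30 and 3 for Fbxo21. Fbxo40, a muscle-specific F-box protein that targets the insulin receptor substrate IRS1, was at 104 ± 10.2 and 110 ± 13.6 FPKM (log2 change 0.06, standard error 0.06, edgeR FDR 0.509). Irs1 mRNA itself was at 3.96 ± 1.48 and 5.22 ± 1.79 FPKM (log2 change 0.38, standard error 0.18, edgeR FDR 0.150).

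Trim63 encodes MuRF1, a RING ligase of the sarcomere known to act on myosin heavy chains and other thick filament proteins. It lies on the plus strand of chromosome 4 (chr4:134042431-134056940). LD mice ranged from 107 to 463 FPKM around a median of 153 FPKM, and ADV mice from 95.9 to 657 FPKM around a median of 216 FPKM. ADV mice 35 (657 FPKM) and 30 (649 FPKM) were far above the next ADV mouse at 310 FPKM, and the groups overlapped over nearly the whole LD range. The means were 209 ± 112 FPKM (SD, n = 14) and 257 ± 167 FPKM (n = 16), a log2 change of 0.28 (standard error 0.27, 95% interval -0.26 to 0.82, edgeR FDR 0.517). Without ADV mouse 30 the log2 change was 0.12, the lowest value in the 30 fits without 1 mouse each.

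Trim54 encodes MuRF3, a microtubule-associated relative of MuRF1. LD mice ranged from 190 to 289 FPKM (median 215 FPKM) and ADV mice from 216 to 315 FPKM (median 237 FPKM). The LD median was exceeded by all 16 ADV mice, although LD mouse 33 was higher than all but 1 of them. edgeR gave a log2 change of 0.13 (standard error 0.06, FDR 0.147), and the two-sided exact Wilcoxon rank-sum test on FPKM gave an unadjusted p of 0.00449. The edgeR FDR was 0.0377 without LD mouse 33 and 0.0238 with a slow minus fast fiber score as a covariate, and the log2 change was 0.03 with the GC content trend of each library removed. The GC content of the transcript was 59.0%, the highest of the 10 genes. Gm15469 overlaps 11.2% of its exon bases on the other strand.

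Trim55 encodes MuRF2, which binds titin and microtubules in developing and working sarcomeres. LD mice ranged from 20.1 to 26.7 FPKM (median 22.97 FPKM) and ADV mice from 18.8 to 24.3 FPKM (median 21.9 FPKM). The groups overlapped widely, with 14 of the 16 ADV mice below the LD median and 3 below the lowest LD mouse. Trim55 was lower in ADV by a small amount (log2 change -0.12, standard error 0.04, edgeR FDR 0.0400). The call was at the edge of the threshold: 15 of the 30 fits without 1 mouse each had an FDR of 0.05 or more, up to 0.0651 without LD mouse 23. It was 0.0224 by DESeq2, but 11 of 14 other alternatives also lost the call, among them limma on log2(FPKM + 0.1) (0.113), a fiber score as a covariate (0.06) and the GC content trend removed (0.0989).

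Cblb, a RING ligase of the CBL family that is known to target IRS1 in unloaded muscle, was at 3.86 ± 0.89 FPKM (SD, n = 14) in LD and 4.28 ± 0.86 FPKM (n = 16) in ADV. Its log2 change was 0.13 (standard error 0.11, edgeR FDR 0.440). Its relative Cbl was at 1.43 ± 0.18 and 1.35 ± 0.26 FPKM (log2 change -0.10, edgeR FDR 0.426). Neither gene differed between the groups beyond its spread.

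Nedd4, a HECT ligase of the plasma membrane and endosomes with many substrates, among them growth factor receptors and channels, gave the clearest difference of the 10. It lies on chromosome 9 (chr9:72569628-72657134, plus strand). LD mice ranged from 81.6 to 92.8 FPKM with a median of 90.1 FPKM, and ADV mice from 60.6 to 86.7 FPKM with a median of 79.5 FPKM. All 16 ADV mice were below the LD median and 10 were below the lowest LD mouse. Nedd4 fell from 88.9 ± 3.27 FPKM (SD, n = 14) to 77.6 ± 7.57 FPKM (n = 16), a log2 change of -0.21 (standard error 0.04, 95% interval -0.29 to -0.13, edgeR FDR 0.00253, unadjusted exact two-sided Wilcoxon p = 1.91e-06). It kept an FDR under 0.05 in all 30 fits that each left out 1 mouse, at most 0.00525 without LD mouse 28. The related gene Nedd4l, at 4.17 ± 0.72 and 4.07 ± 0.79 FPKM, had a log2 change of -0.05 (edgeR FDR 0.727).

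The relation of Nedd4 to the share of reads on exons passed the adjustment only by Pearson's r in ADV mice. In ADV mice Pearson's r was -0.83 (permutation p = 9.2e-04, adjusted p = 0.0368 over 120 relations) and Spearman's rho -0.44 (permutation p = 0.0854). The relation rested on ADV mice 34 and 25, the lowest in Nedd4 at 60.6 and 61.0 FPKM, since without both r was -0.34 (permutation p = 0.228). In LD mice r was -0.39 (permutation p = 0.163) and rho -0.42 (permutation p = 0.14). Without these 2 mice the log2 change between the groups was -0.17 (edgeR FDR 0.00211), and with all mice it was -0.17 (FDR 0.0046) with the GC content trend removed. With the share of reads on exons as a covariate it was -0.10 (FDR 0.141). Among the mice with a share between 91.14 and 91.3%, a range held by both groups, 10 LD mice were at 81.6 to 92.8 FPKM and 4 ADV mice at 78.1 to 83.7 FPKM. These fits, apart from those that left out 1 mouse, were chosen after the data were seen.

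**Figure D3:**
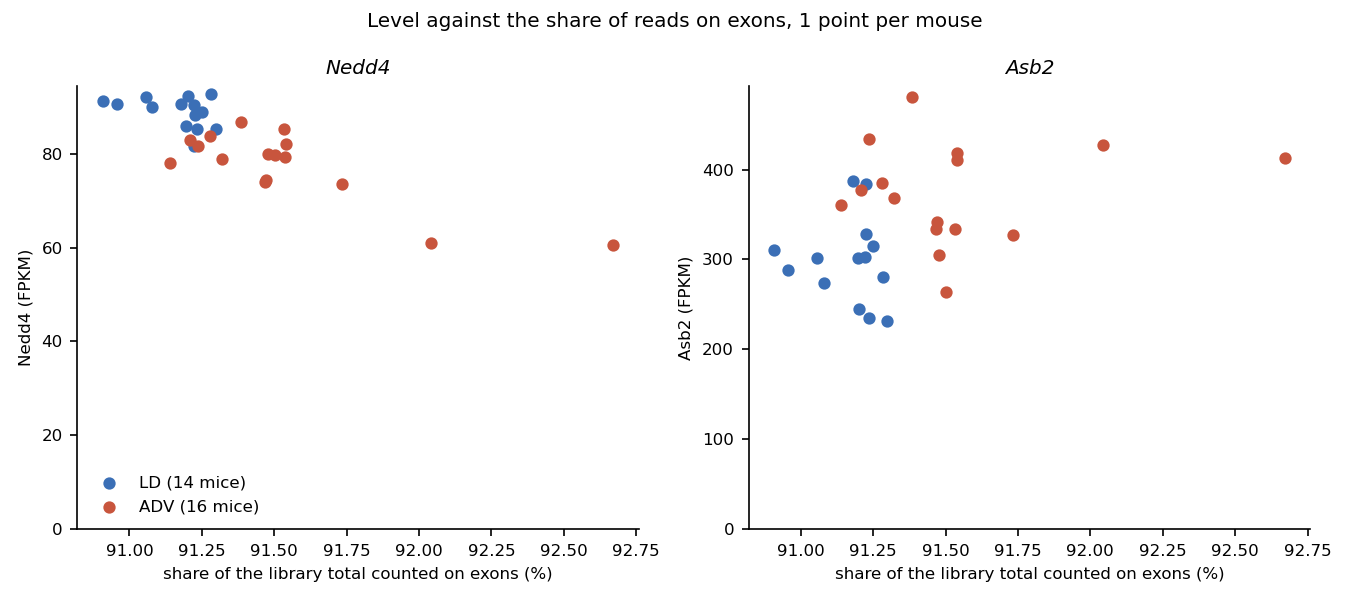
Level of Nedd4 (left) and Asb2 (right) in FPKM, from 0, against the percent of each library counted on exons, 1 point per mouse, LD in blue and ADV in red. The ADV mice with 92.04 and 92.67% on exons are the lowest for Nedd4, at 61.0 and 60.6 FPKM, and are within the range of the other ADV mice for Asb2.

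Asb2 encodes the substrate-binding subunit of a cullin ligase that is known to target filamin B and to limit muscle mass. It lies on chromosome 12 (chr12:103287401-103322260, minus strand). LD mice ranged from 232 to 387 FPKM with a median of 302 FPKM, and ADV mice from 263 to 481 FPKM with a median of 373 FPKM. The groups overlapped, but 15 of 16 ADV mice exceeded the LD median and 6 exceeded the highest LD mouse. Asb2 rose from 299 ± 47.2 FPKM (SD, n = 14) to 374 ± 55.7 FPKM (n = 16), a log2 change of 0.31 (standard error 0.09, 95% interval 0.14 to 0.48, edgeR FDR 0.0218, unadjusted exact two-sided Wilcoxon p = 5.06e-04). The FDR stayed under 0.05 in all 30 fits that each left out 1 mouse, up to 0.0366 without ADV mouse 25. It was 0.0514 without ADV mice 25 and 34 together (log2 change 0.28), 0.114 with the GC content trend removed (0.21) and 0.194 with the share of reads on exons as a covariate (0.28).

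The groups also differed in clock genes, and the part of this difference in the results was read only from a covariate. Bmal1, the core activator of the clock, rose from 10.2 ± 3.15 FPKM (SD, n = 14) to 16.1 ± 4.07 FPKM (n = 16, edgeR FDR 0.00844). A score of clock genes was above 0 in 14 of 16 ADV mice and below 0 in 11 of 14 LD mice, so the score and the group were largely confounded and their parts cannot be told apart. With this score as a covariate, 0 of the 10 ligase genes and 0 of all genes had an edgeR FDR under 0.05, while 3 of the 10 and 1616 of all genes had an unadjusted p under 0.05. The log2 change was -0.20 for Nedd4 (FDR 0.174), 0.15 for Asb2 (FDR 0.585) and -0.17 for Trim55 (FDR 0.191). Within groups, Asb2 had an r of 0.39 with the clock score in LD mice (permutation p = 0.17) and 0.42 in ADV mice (permutation p = 0.103), with rho of 0.45 (permutation p = 0.113) and 0.24 (permutation p = 0.368). Without the 2 mice farthest from the median of the clock score, r was 0.48 in LD and -0.0026 in ADV mice. Neither relation passed the adjustment over 120 relations. Other ligase genes had r of larger size with the score in LD mice. These were Fbxo40 (-0.72, permutation p = 0.00392, adjusted p = 0.0588), Fbxo21 (-0.70, permutation p = 0.00518, adjusted p = 0.0691) and Trim55 (0.57, permutation p = 0.0339, adjusted p = 0.198). In ADV mice their r were 0.06, -0.24 and -0.33. Nedd4 had an r of -0.17 in LD and -0.0035 in ADV mice. No ligase gene passed against the clock score in either group.

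The ligase genes differed widely from each other in their spread between mice. In log2(FPKM + 0.1) the SD of Trim63 was 0.69 in LD and 0.78 in ADV mice, higher than in 98.4% and 99.1% of all genes tested. The SD of Fbxo32 was 0.36 in LD and 0.74 in ADV mice, higher than in 88% and 98.9% of them. Nedd4 was at the other end, with an SD of 0.05 in LD mice, at the 0.698th percentile, and 0.15 in ADV mice, at the 28.5th. Trim63 in both groups and Fbxo32 in ADV mice were thus among the most variable genes of this muscle, and Nedd4 in LD mice among the least.

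Whether the spread differed between the groups was tested with limma on each mouse's absolute deviation from its group median in log2 CPM. Fbxo32 deviated by a mean of 0.30 in LD and 0.61 in ADV mice (difference 0.31, standard error 0.14, unadjusted p from limma 0.0287, FDR 0.801). Nedd4 deviated by 0.04 and 0.11 (difference 0.07, unadjusted p from limma 0.0396, FDR 0.801). None of the 10 genes passed, as against 0.00831% of all genes, a single gene wider in LD. An unadjusted p under 0.05 was found for 2 of the 10 and for 6.01% of all genes. The same limma test on log2(FPKM + 0.1) also called 0 of the 10. Over all genes tested, 60.9% had the larger deviation in ADV mice.

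From mouse to mouse, Fbxo32 and Trim63 rose and fell together in the ADV group. In ADV mice r was 0.84 (permutation p = 9e-05, adjusted p = 0.0081 over 90 pairs of genes and groups) and rho 0.70 (permutation p = 0.00374). Without the 2 mice farthest from the median of Fbxo32, r was 0.72 (permutation p = 0.00361, adjusted p = 0.108). This was the only pair that kept an adjusted p under 0.05 whichever ADV mouse was left out, at most 0.0445 without mouse 35. In LD mice r was 0.66 (permutation p = 0.0115, adjusted p = 0.0691) and rho 0.71 (permutation p = 0.00594), and without the 2 farthest mice r was 0.87 (permutation p = 2.3e-04). The ratio of Trim63 to Fbxo32 level ranged from 1.36 to 3.79 in LD (median 1.97) and from 1.63 to 4.28 in ADV mice (median 2.53).

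**Figure D4:**
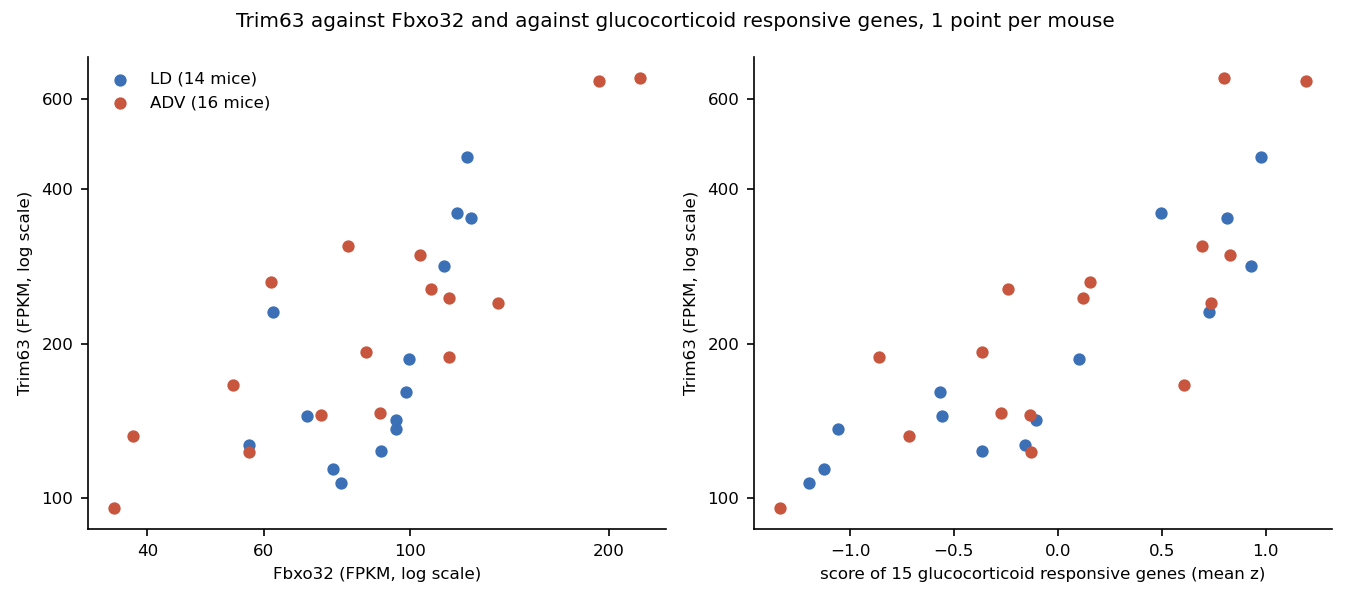
Level of Trim63 (vertical axes, FPKM, log scale) against that of Fbxo32 (left, FPKM, log scale) and against a score of 15 glucocorticoid responsive genes (right, mean z score), 1 point per mouse, LD in blue and ADV in red. Points of both groups rise from lower left to upper right, with r of 0.66 (LD) and 0.84 (ADV) on the left and 0.89 (LD) and 0.78 (ADV) on the right.

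Few other pairs passed, and 0 passed in both groups. Of 45 pairs, 2 passed in LD and 4 in ADV mice. In LD mice Trim63 rose with Cblb (r 0.75, rho 0.66, permutation p = 0.00292 and 0.0122, adjusted p = 0.0439; r 0.63 without the 2 farthest mice), and Trim55 was low where Fbxo40 was high (r -0.79, rho -0.78, permutation p = 9.9e-04 and 0.0016, adjusted p = 0.0399; r -0.65 without 2). In ADV mice Trim63 rose with Asb2 (r 0.73, rho 0.74, permutation p = 0.00133 and 0.00164, adjusted p = 0.0399; r 0.59 without 2). Trim54 was low where Fbxo30 was high (r -0.70, rho -0.57, permutation p = 0.00293 and 0.0232, adjusted p = 0.0439; r -0.38 without 2) and where Fbxo21 was high (r -0.68, rho -0.64, permutation p = 0.00233 and 0.00843, adjusted p = 0.0439; r -0.60 without 2). Each of these 5 lost its call without some single mouse, with the highest adjusted p at 0.144 for Trim63 and Cblb (without LD mouse 33), 0.0588 for Trim55 and Fbxo40 (LD mouse 21), 0.0853 for Trim63 and Asb2 (ADV mouse 35), and 0.205 and 0.0798 for Trim54 with Fbxo30 and with Fbxo21 (ADV mouse 34). By Spearman's rho 0 of the 90 passed. Differences in r between the groups were not tested. In ADV mice r with the share of reads on exons was 0.74 for Trim54, -0.70 for Fbxo30 and -0.59 for Fbxo21. These relations did not pass (permutation test, adjusted p = 0.074, 0.0566 and 0.083). Without the 2 mice farthest from the median of the share, r was -0.06, -0.325 and -0.48. In LD mice r was -0.31, 0.05 and -0.61. The part of this share in the pairs of Trim54 was not tested.

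**Figure D5:**
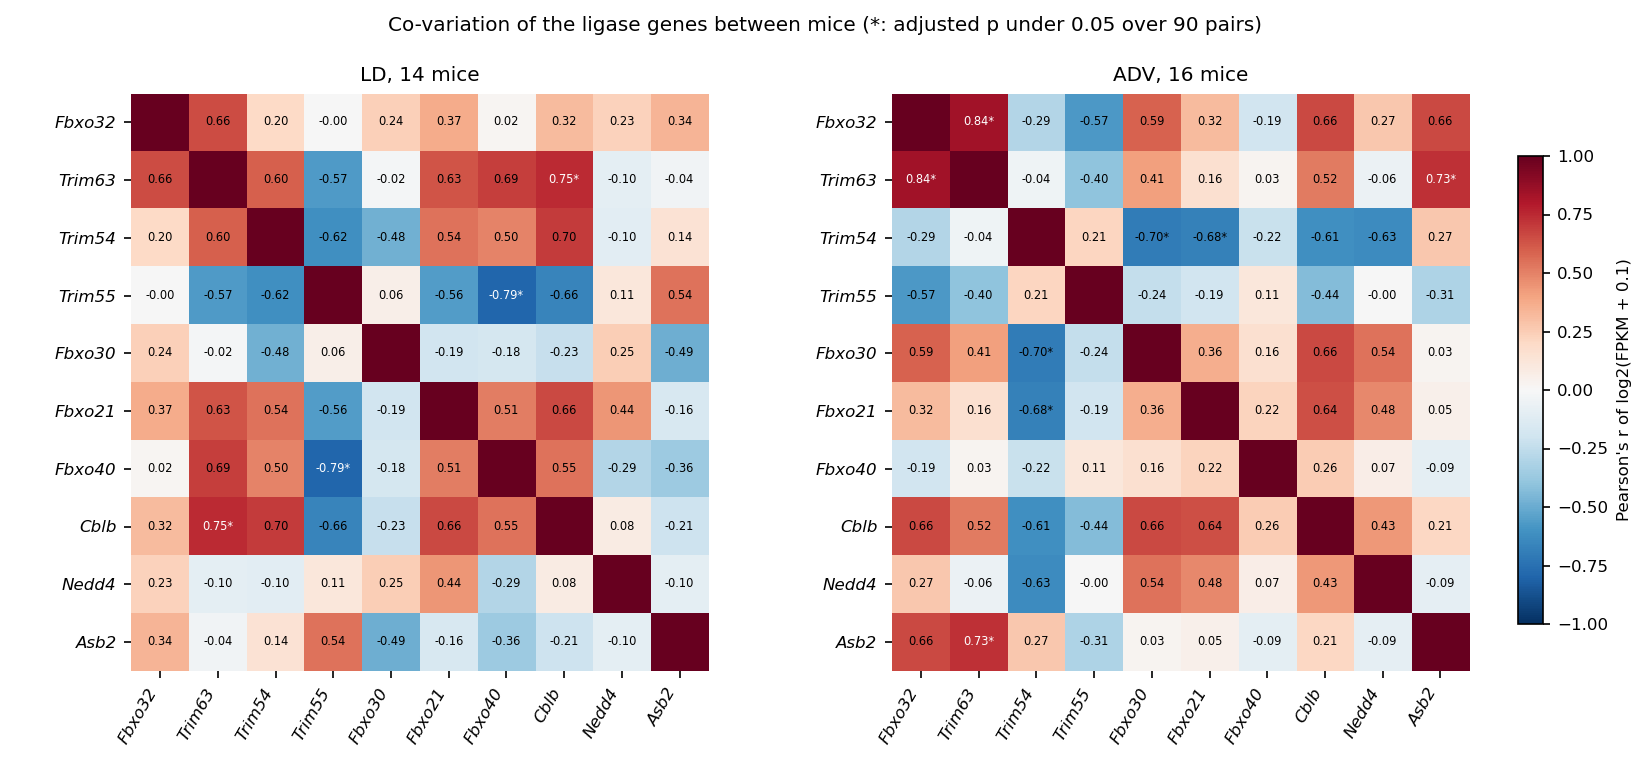
Pearson's r between each pair of the 10 genes over 14 LD mice (left) and 16 ADV mice (right), in log2(FPKM + 0.1), with red for positive and blue for negative r and a star for an adjusted p under 0.05. The pair Fbxo32 and Trim63 is at 0.66 in LD and 0.84 in ADV, while Trim54 is negative with Fbxo30, Fbxo21, Cblb and Nedd4 in ADV. Its pairs with Cblb and Nedd4 carry no star. Without the 2 ADV mice farthest from the median of Trim54 their r were -0.43 and 0.23. The r of Cblb and Nedd4 with the share of reads on exons in ADV mice were -0.54 and -0.83.

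Trim63 also followed glucocorticoid responsive genes. The score was the mean z score of 15 genes, among them Fkbp5, Tsc22d3, Zbtb16 and Klf15. In LD mice r was 0.89 (permutation p = 3e-05, adjusted p = 0.0036 over 120 relations) and rho 0.87 (permutation p = 1.3e-04). It was 0.85 for r without the 2 mice farthest from the median of the score. In ADV mice r was 0.78 (permutation p = 2.7e-04, adjusted p = 0.0162) and rho 0.75 (permutation p = 0.00122), and r was 0.63 without the 2 farthest. The relation held in LD mice whichever mouse was left out, and in ADV mice the adjusted p was 0.0566 without mouse 30. Fbxo32 had an r of 0.43 (permutation p = 0.121) with the score in LD and 0.62 (permutation p = 0.0104, adjusted p = 0.089) in ADV mice, with rho of 0.57 (permutation p = 0.0362) and 0.49 (permutation p = 0.0595), and r was 0.31 and 0.38 without the 2 farthest mice. The glucocorticoid responsive genes themselves gave no call between the groups, with 0 of 15 called by edgeR, 1 at an unadjusted p under 0.05 (Arrdc3) and a median log2 change of 0.12. Their summed level was 253 to 1149 FPKM in LD and 309 to 1354 FPKM in ADV. Other ligase genes came near the threshold with this score in LD mice. They were Cblb (r 0.73), Fbxo40 (0.75) and Trim55 (-0.75), each with an adjusted p of 0.0566 by the permutation test. In ADV mice the r of these genes with the score were 0.36, -0.05 and -0.14.

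The genes whose levels were most like those of Fbxo32 and Trim63 were ranked by r over all 30 mice after centring on the group means, as a description with no test. Closest to Fbxo32 were Klhl38 (r 0.92), a muscle kelch protein of the cullin ligase family, Slc43a1 (0.83), Pnrc1 (0.78) and Zfand5 (0.76), a zinc finger protein that activates the proteasome. Trim63 ranked 5 of 12030 genes (0.76). The lowest r with Fbxo32 were those of Cyb5b (-0.80), Ddit3 (-0.80) and Snx17 (-0.79). Among the genes closest to Trim63 were Npc1 (0.87), Wbp1l (0.86), the glucocorticoid-induced factor Klf15 (0.84), Pim3 (0.84), Lvrn (0.83) and Foxo3 (0.82). Its lowest r were with Sec14l5 (-0.91), Calm2 (-0.89) and Mrtfa (-0.88). These mice share one tissue, and a library's base composition or depth enters both genes of a pair.

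The other 8 genes had other neighbours. Trim54 was closest to Myoz1 (0.84), a Z-disc protein of fast fibers, Trim55 to Steap3 (0.86), Fbxo30 to Ssh2 (0.83), Fbxo21 to Cpt1a (0.83), the carnitine palmitoyltransferase of mitochondria, and Fbxo40 to Zcchc7 (0.80). Cblb was closest to Arhgap26 (0.81) and had Foxo3 (0.76) as the third. Nedd4 was closest to Ap4e1 (0.87) and Asb2 to Atp2a1 (0.70), the calcium pump of fast fibers. The r of Nedd4 with Taf1, the third in order, was 0.25 in LD and 0.92 in ADV mice.

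The promoter of Trim63 is shown because its level followed glucocorticoid responsive genes and Foxo3 was among its closest genes. The ranking that gave Foxo3 had no test. Against the score of 22 FoxO target genes other than ligases, Trim63 did not pass in either group. Its r with that score was 0.61 in LD and 0.64 in ADV mice (permutation test, adjusted p = 0.126 and 0.083). Without the 2 mice farthest from the median of the score, r was 0.48 and 0.07. The sequence below is the plus strand of GRCm39 (chr4:134042131-134042392), from 300 bases before the start of the tables' transcript to the start of the first exon in the GENCODE vM39 annotation. Capitals mark, in order, the glucocorticoid half-site TGTTCT with the FoxO motif GTAAACA on the opposite strand directly after it, and the myogenic E-box CAGCTG.

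Trim63: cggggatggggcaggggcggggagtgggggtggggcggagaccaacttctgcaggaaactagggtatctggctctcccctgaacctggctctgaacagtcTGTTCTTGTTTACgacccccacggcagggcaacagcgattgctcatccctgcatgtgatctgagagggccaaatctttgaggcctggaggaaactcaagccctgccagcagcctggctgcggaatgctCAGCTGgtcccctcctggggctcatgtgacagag

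The half-site is at -200 to -195 from the start of the tables' transcript and the FoxO motif at -194 to -188. The half-site is preceded by gaaca at a spacing of 3 bases, which makes an inverted repeat, and of 12029 promoters of tested genes 3 (0.0249%) held such a repeat with this spacing, a pattern searched for after the sequence was seen. Motifs were searched on both strands of the 300 bases before the start of each tested gene. The half-site was in 13.3% of these promoters, the FoxO motif in 2.83% and CAGCTG in 14%. Of the 10 genes, 2 held the half-site (Trim63 and Trim55), 1 the FoxO motif (Trim63) and 3 CAGCTG (Trim63, Trim54 and, with 2 copies, Fbxo40). The D-box TTATGTAA, held by 0.657% of promoters, was in 0 of the 10.

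Fbxo32 and Asb2 held the clock E-box CACGTG just before the start, and Fbxo32 and Trim63 the TATA box TATAAA. Both motifs are in capitals in the 30 bases from -45 to -16 of each gene, given 5′ to 3′ on the gene's own strand (minus for Fbxo32 at chr15:58078344-58078373 and Asb2 at chr12:103322276-103322305, plus for Trim63 at chr4:134042386-134042415).
Fbxo32: cgagccTATAAAcaaagcCACGTGgcctcg
Asb2: caaggatcacaaatgatgacatCACGTGag
Trim63: gacagaggtgcagcTATAAAtatcagaggg

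CACGTG was found in 9.29% of the promoters and TATAAA in 8.58%. The matches describe these letters alone, and in the GENCODE vM39 annotation the transcripts of all 3 genes can start further upstream, so that these 30 bases are exonic there for Fbxo32 and Asb2 and, past base 134042392 of chromosome 4 with the TATA box included, for Trim63. Nedd4, Fbxo30, Fbxo21 and Cblb held none of the 6 motifs in this window.

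The genes around the ligases were read from lists of regulators, conjugating enzymes, substrates and responses. Over 8 lists around the pathway (207 genes tested, the 10 ligases not counted), 22 genes had an edgeR FDR under 0.05, a share close to the 10.8% of all genes. Of 28 known regulators of the ligase genes, 3 rose and 2 fell, with a median log2 change of -0.01. Myog, a myogenic factor that activates Fbxo32 and Trim63 after denervation, rose from 1.57 ± 0.35 to 2.66 ± 0.94 FPKM (log2 change 0.74, edgeR FDR 0.00377), Hdac5 rose by 0.22 (FDR 0.00778) and Akt1, the kinase that excludes FoxO factors from the nucleus, by 0.19 (FDR 0.0196). The BMP receptor gene Bmpr1a had a log2 change of -0.28 (edgeR FDR 0.0122) and the IGF-1 receptor gene Igf1r one of -0.29 (FDR 0.0401). The FoxO genes and the glucocorticoid receptor did not pass, with log2 changes of -0.28 for Foxo1 (edgeR FDR 0.482), -0.05 for Foxo3 (FDR 0.784), -0.03 for Nr3c1 (FDR 0.783) and -0.11 for Klf15 (FDR 0.7).

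Of 22 FoxO target genes other than ligases, 1 rose and 0 fell. It was Cdkn1a, the cell cycle inhibitor p21, which went from 10.6 ± 3.78 to 20.7 ± 14.6 FPKM (log2 change 0.95, edgeR FDR 0.0241). The next by p, Sesn3 (log2 change -0.22, edgeR FDR 0.0541) and the deubiquitinase gene Usp14 (-0.19, FDR 0.0734), did not pass. Of 14 genes of denervation, 3 rose and 0 fell, with a median log2 change of 0.04, while 5.61% of all genes were called higher. Those that rose were Ankrd1 (log2 change 0.997, edgeR FDR 0.00346), Myog and Cdkn1a, the last 2 also counted in the lists above. None of the other genes of this list had an unadjusted edgeR p under 0.05.

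In a list of 19 genes of the cullin core and of ubiquitin, 4 fell. The scaffolds Cul3 (from 47.3 ± 3.44 to 41.7 ± 5.00 FPKM, log2 change -0.20, edgeR FDR 0.0260), Cul1 (-0.13, FDR 0.0241), Cul2 (-0.16, FDR 0.0440) and Cul5 (-0.24, FDR 0.0478) were lower in ADV mice. Cul1 is the scaffold of the F-box ligases and Cul5 that of the Asb2 ligase. The polyubiquitin gene Ubb did not pass (0.12, FDR 0.116). Of 24 ubiquitin-conjugating enzymes, 0 rose and 2 fell, Ube2d1 (from 84.4 ± 11.7 to 71.7 ± 5.60 FPKM, log2 change -0.25, edgeR FDR 0.0102) and Ube2g1 (-0.19, FDR 0.0389).

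Of 62 other ubiquitin ligase genes of muscle, 2 rose and 3 fell, with a median log2 change of -0.02. Rnf115 rose from 27.9 ± 5.55 to 41.7 ± 10.3 FPKM (log2 change 0.56, edgeR FDR 0.00251), and Klhl40, which stabilises thin filament proteins, from 59.9 ± 4.87 to 75.8 ± 12.3 FPKM (0.32, FDR 0.00384). Fbxo11 (-0.21, edgeR FDR 0.0210), Asb8 (-0.14, FDR 0.0247) and the HECT ligase gene Itch (-0.16, FDR 0.0432) fell. Klhl38, the gene closest to Fbxo32, had a log2 change of 0.05 (edgeR FDR 0.914). Of 33 reported substrates of the ligases, 2 rose and 2 fell by edgeR, Myod1 (log2 change 0.73, FDR 0.0148) and the Z-disc gene Myot (0.18, FDR 0.0367) rising and Fgfr1 (-0.22, FDR 0.0231) and Igf1r falling. Over these lists, edgeR called 14 genes in place of 22 with the GC content trend removed, and 0 with the share of reads on exons or the clock score as a covariate (31 and 34 at an unadjusted p under 0.05).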

How the data were processed

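Paired-end reads of 101 bases from stranded poly(A) RNA were trimmed by the authors (Trimmomatic) and mapped to GRCm39 (STAR 2.7.10a). Poorly mapped reads were dropped, and HOMER 4.11 counted the rest over exons of UCSC known canonical transcripts (versions from the submitters' processing notes). The deposited raw counts are estimated counts, since each mate counts as 0.5 read (14.8% were not whole), and were rounded here. The deposited FPKM values equal the authors' count divided by exon length and library total, to within 5.0e-04. Each library was assigned to its group by its title. The labels name no batch, and nothing in the counts pointed to a library deposited in duplicate.

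Read depth was 18875468.5 to 28512674 read pairs per library, and the 10 genes had means from 319.6 (Fbxo30) to 22233.9 (Asb2) reads. Genes with a mean over 20 reads and over 0.5 FPKM, 1 row per symbol, were tested (99.7% of reads). Groups were compared with edgeR 4.0.16 (TMM, quasi-likelihood) in R 4.3.3, called at an FDR under 0.05 over all genes. The spread was tested with limma 3.58.1. Correlations within groups used log2(FPKM + 0.1) and 100000 permutations (two-sided, numpy 2.4.6), which can give a smallest p of 1.0e-05. Benjamini-Hochberg adjustment was over 90 gene pairs or 120 relations with 6 measures. The measures were scores of clock, glucocorticoid, fiber, immediate early and FoxO target genes and the share of reads on exons. Wilcoxon tests on FPKM were two-sided and exact.

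On simulated counts with 100 genes changed at each size, edgeR called 96 at a log2 change of 0.6 and 98 at 1.2, and 6 of 11831 unchanged genes. The spread test was run on simulated normal values rather than counts, with the same SD for all unchanged genes, unlike the data. It called 141 of 200 genes made 4 times wider. Both simulated log2 changes were larger than that of any member ligase gene, the largest being 0.31 for Asb2. The mean deviation of Fbxo32, 0.30 in LD and 0.61 in ADV mice, also differed by less than the simulated widening. Changes of the sizes seen in the member genes were not simulated, so these counts do not tell how often such changes would be missed.

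The members, gene lists and motifs were chosen with earlier results of these data known. Named were all members, the 3 genes of smallest p of a list, fixed regulators, the 8 highest and 3 lowest correlated genes of Fbxo32 and Trim63 and the 3 highest of each other member. Cul2, Cul5, Akt1, Igf1r, Asb8, Itch and Klhl38 were named after their values were seen, and of some lists or neighbours fewer than the rule allows are given. Alternatives were DESeq2 1.42.0, limma on log2(FPKM + 0.1) and log2(FPKM + 1), other scalings and filters, a replicate block, covariates, and leaving out each mouse. Removal of the GC content trend, leaving out ADV mice 25 and 34 and the share of reads on exons as a covariate were chosen after seeing the data. Promoters were read from the GRCm39 genome at the deposited transcript starts. Protein sequences were not used here, and a few genes that the rule names are not reported here.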

Additional observations from a re-analysis of the deposited data

How the results depend on the processing

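The count of ligase genes called by edgeR (3 of 10) was 2 to 4 when each mouse was left out in turn, 2 with a replicate block, 2 for the 28 libraries of that fit without the block, 1 with the GC content trend removed, 1 without ADV mice 25 and 34, and 0 with the clock score or the share of reads on exons as a covariate. Over all genes tested, 1301 were called, against 603 with the GC content trend removed, 744 without these 2 mice, 629 with no filter on low genes, 45 with the share of reads on exons and 0 with the clock score as a covariate. Leaving out 1 mouse gave 835 to 1542. The replicate block called 494 genes and the same libraries without it 616. The numbers in the titles are not stated to pair the mice. Over 14 same-numbered pairs the correlation of deviations ran from -0.26 to 0.43 (median 0.01). Of these, 6 were over 0.1, and 3 LD mice correlated best with their own number. Such correlations cannot settle whether mice of the same number shared a condition.

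Nedd4 kept its direction in all alternatives and its call in all but those with the clock score or the share of reads on exons as a covariate. Asb2 kept its direction and lost its call in 4 of 14 alternatives other than leaving out 1 mouse. Trim55 kept its direction, with calls lost in 11 of these 14 (an FDR of 0.0795 with the replicate block) and in 15 of 30 fits that left out 1 mouse. Log2 changes that turned were those of Fbxo32, at -0.0596 and -0.0575 by limma on log2(FPKM + 0.1) and log2(FPKM + 1), -0.0137 with the replicate block, -0.176 with the clock score and -0.0549 to 0.129 when each mouse was left out (negative without ADV mouse 30 or 35), of Fbxo21, at 0.179 with the clock score and 0.0296 with the share of reads on exons, and of Fbxo30, at 0.0179 with the latter. None of these was called. In all, 397 of 440 member values kept their direction and side of the threshold, 32 lost the call, 2 gained it and 9 turned.

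The 0 calls for the spread between mice stood at 0 in each fit that left out 1 mouse. The difference in spread turned when single mice were left out for Trim63 (-0.0169 to 0.154, negative without ADV mouse 30 or 35), Trim54 (-0.034 to 0.0187, positive without LD mouse 33) and Cblb (-0.035 to 0.0379, positive in 10 fits), and on log2(FPKM + 0.1) for Fbxo40 (0.00874). The 6 pairs of genes that co-varied became 1 to 13 when 1 mouse was left out, 9 on log2 CPM, 0 by Spearman's rho and 1 without the 2 farthest mice, which was Fbxo32 with Trim63 in LD mice and so none of the 6. The 3 relations with scores became 1 to 8, 10 on log2 CPM and 1 by Spearman's rho. The 22 pathway genes called became 14 with the GC content trend removed and 0 with the share of reads on exons or the clock score. The cause of these changes was not tested.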

Other observations

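Immediate early genes, transcription factors and other genes that respond within minutes to a stimulus, were higher in ADV mice in 10 of 17 tested by edgeR (none lower, median log2 change 0.59), led by Atf3, Jun and Ccn1. No relation of the immediate early score with a ligase gene passed the adjustment in either group. With Trim63 r was 0.21 in LD (permutation p = 0.478) and 0.09 in ADV mice (permutation p = 0.738). With Fbxo32 it was 0.02 (permutation p = 0.934) and -0.01 (permutation p = 0.967). The r of largest size were those of Fbxo30 in LD (0.37, permutation p = 0.187) and Nedd4 in ADV mice (-0.33, permutation p = 0.217). Weaker relations could be missed with so few mice.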
